A study of Mus musculus with 12 samples.

Results

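Genes at loci that carry common risk for Alzheimer's disease in human genetic studies were followed in cultured mouse astrocytes. The set was a list of 10 symbols, namely Sorl1, Bin1, Picalm, Cd2ap, Abca7, Cd33, Inpp5d, Plcg2, Ptk2b and Mef2c, taken with every probe set that the array annotation paired with 1 of them alone. The rule itself used no measured value. Of the 10 genes, 9 had such a probe set, 21 probe sets in all, among 18193 genes and 45037 probe sets tested. Picalm was not analysed here.

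RNA was hybridised to 12 one-colour Affymetrix mouse arrays, 3 in each of 4 groups. The 4 groups were adult cells on APdE9 sections, adult cells on WT sections, neonatal cells on APdE9 sections and neonatal cells on WT sections. Adult cells came from mice of 6 to 8 weeks and neonatal cells from pups aged 3 d in the sample labels and 2 d in the protocol text. All cells were hippocampal and cortical cultures from C57Bl/6j mice with an eGFP transgene, a green fluorescent label, and every culture lay on a brain section for 22 h before the green cells were loosened with trypsin and drawn off by suction. APdE9 sections came from mice with 2 transgenes, a chimeric mouse/human APPSwe and PS1-dE9, each under a mouse prion protein promoter, and WT sections from their C57Bl/6j littermates. The section, not the measured cell, thus carried the transgenes. Material was pooled (n = 3) before RNA was isolated. The arrays of a group are named biological replicates in the labels, and each p-value below is set against the variation among such pools alone, part of which may be technical. The adult cultures went through Percoll and were kept in DMEM/F12 plus G5 supplement, and the neonatal ones in DMEM with neither step. Age, isolation and medium therefore cannot be told apart.

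Most of these genes act in 3 connected systems. Sorl1, Bin1, Picalm and Cd2ap serve endocytosis and the sorting of cargo such as the amyloid precursor protein between the cell surface, endosomes and the Golgi. Cd33, Inpp5d and Plcg2 belong to the receptor signalling of myeloid cells, which in brain are chiefly microglia, where phosphoinositide lipids carry the signal. Abca7 moves lipids across membranes, Ptk2b is a kinase of cell adhesion and calcium signalling, and Mef2c is a transcription factor.

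For the 4 genes that were lower in adult than in neonatal cells on both kinds of section, the 250 bases before the RefSeq start site are shown 5′ to 3′ on the strand of the gene (build GRCm38.p6). Capitals mark GAGGAA, a core of sites for the myeloid factor PU.1, and GGGCGG, the Sp1 box. For Sorl1 the outer of 2 listed starts is given.
Sorl1, chr9:42124298-42124547, minus strand: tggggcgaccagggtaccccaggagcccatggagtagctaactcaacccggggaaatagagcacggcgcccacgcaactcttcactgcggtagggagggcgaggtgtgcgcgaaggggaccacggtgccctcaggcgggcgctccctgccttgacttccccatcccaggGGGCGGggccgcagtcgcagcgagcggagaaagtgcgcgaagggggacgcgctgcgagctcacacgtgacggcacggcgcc
Cd33, chr7:43533172-43533421, minus strand: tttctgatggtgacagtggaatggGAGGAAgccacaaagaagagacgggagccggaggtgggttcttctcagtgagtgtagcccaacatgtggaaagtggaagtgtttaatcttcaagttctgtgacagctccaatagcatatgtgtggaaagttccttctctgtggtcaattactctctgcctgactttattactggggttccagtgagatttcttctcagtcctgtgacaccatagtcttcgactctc
Inpp5d, chr1:87620062-87620311, plus strand: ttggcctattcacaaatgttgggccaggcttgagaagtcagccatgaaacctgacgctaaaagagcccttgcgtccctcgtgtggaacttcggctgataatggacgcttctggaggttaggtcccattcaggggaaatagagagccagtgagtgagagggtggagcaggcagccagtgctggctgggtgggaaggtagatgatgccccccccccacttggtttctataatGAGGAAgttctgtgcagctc
Plcg2, chr8:117498025-117498274, plus strand: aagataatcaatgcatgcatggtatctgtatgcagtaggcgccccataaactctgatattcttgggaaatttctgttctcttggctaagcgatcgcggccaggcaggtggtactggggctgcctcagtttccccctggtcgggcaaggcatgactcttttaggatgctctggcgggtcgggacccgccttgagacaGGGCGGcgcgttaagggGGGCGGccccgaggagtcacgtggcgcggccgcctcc
The motifs were searched on both strands and did not overlap in these windows. PU.1 cores were found once in Cd33, 226 bases before the start, and once in Inpp5d, 20 bases before it, but these letters were not in the windows of Plcg2 and Sorl1. Of the genes not shown, Mef2c, which did not fall with age, also held the core, 122 and 186 bases before separate listed starts. A further Mef2c window and those of Abca7 and Cd2ap held no PU.1 core. Windows of 7 of the 9 measured genes were described, and those of Bin1 and Ptk2b were not. Plcg2 held 2 Sp1 boxes and Sorl1 held 1. Of the genes not shown, Abca7 held an Sp1 box 46 bases before its start. Mef2c held one 10 bases before 1 of its listed starts. Of 32851 mouse promoters of the same length, 23.3% held the PU.1 core and 32.7% the Sp1 box, so a match is a description and not a site.

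Every probe set had been centred on its median over the 12 arrays, so values show how arrays differ and not how strongly a gene was expressed. All values below are centred signals taken as log2, differences are APdE9 minus WT sections or adult minus neonatal cells, and ± is the standard error of the limma fit. A gene is said to rise or fall where the Benjamini-Hochberg adjusted p over all 18193 genes was under 0.05. The lack of levels also means that the labelled cell type could not be checked by expression of its markers, and no gene can be ranked against another. A low signal from fewer cells of a type and from less RNA per cell cannot be told apart in such bulk samples.

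On APdE9 relative to WT sections, 5 of the 9 genes changed in adult cells, Abca7 and Plcg2 upward and Sorl1, Cd2ap and Ptk2b downward, where 17.7% of all genes were called (8.26% upward and 9.40% downward). In neonatal cells Sorl1 alone was called and it fell, against 3.76% of all genes (1.21% upward and 2.55% downward). An unadjusted p under 0.05 was found for 6 of the 9. The share of all genes at that unadjusted threshold was not computed, here or for the lists below, and 3.76% is no measure of it. The section effect itself differed between adult and neonatal cells for 5 genes (Sorl1, Abca7, Mef2c, Cd2ap and Ptk2b), with 10.1% of all genes called (5.19% higher and 4.88% lower in adult cells). For 4 of the 9 genes (Abca7, Mef2c, Cd2ap and Ptk2b) the gene values of the section groups were apart in both ages and in opposite directions, as they were for 3.29% of all genes. The counts of calls depended on single arrays. The adult count was 3 without any 1 of adult WT replicates 1, 2 and 3 or adult APdE9 replicates 1 and 3, and 2 without adult APdE9 replicate 2. The count for the difference was 2 without neonatal WT replicate 2 or adult APdE9 replicate 2, and 3 without neonatal WT replicate 3, neonatal APdE9 replicate 2, adult WT replicate 3 or adult APdE9 replicate 1. The neonatal count was 3 without neonatal WT replicate 1 and 2 without adult WT replicate 3.

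Adult and neonatal cells differed more. On APdE9 sections 7 of the 9 genes changed with age, 2 upward and 5 downward, against 23.5% of all genes (11.7% upward and 11.9% downward). On WT sections 6 genes changed, 2 upward and 4 downward, against 30.1% of all genes (14.9% upward and 15.2% downward). Of the 21 probe sets, the section changed 7 in adult cells and 3 in neonatal cells, where 12.7% and 2.00% of all probe sets were called, and 6 were called for the difference (6.73% of all). With age 11 changed on APdE9 and 12 on WT sections, against 16.4% and 22.9% of all. Sorl1, Cd33, Inpp5d and Plcg2 were lower in adult cells in both comparisons. The means compared come from different arrays, but both tests take their spread from the same fit to all 12 arrays. Isolation and medium differ along with age in both. The median absolute difference over the 9 genes was 0.72 on APdE9 and 0.75 on WT sections, where that of all genes was 0.16 and 0.17. For the section it was 0.44 in adult and 0.30 in neonatal cells, with 0.15 and 0.09 over all genes.

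**Figure D1:**
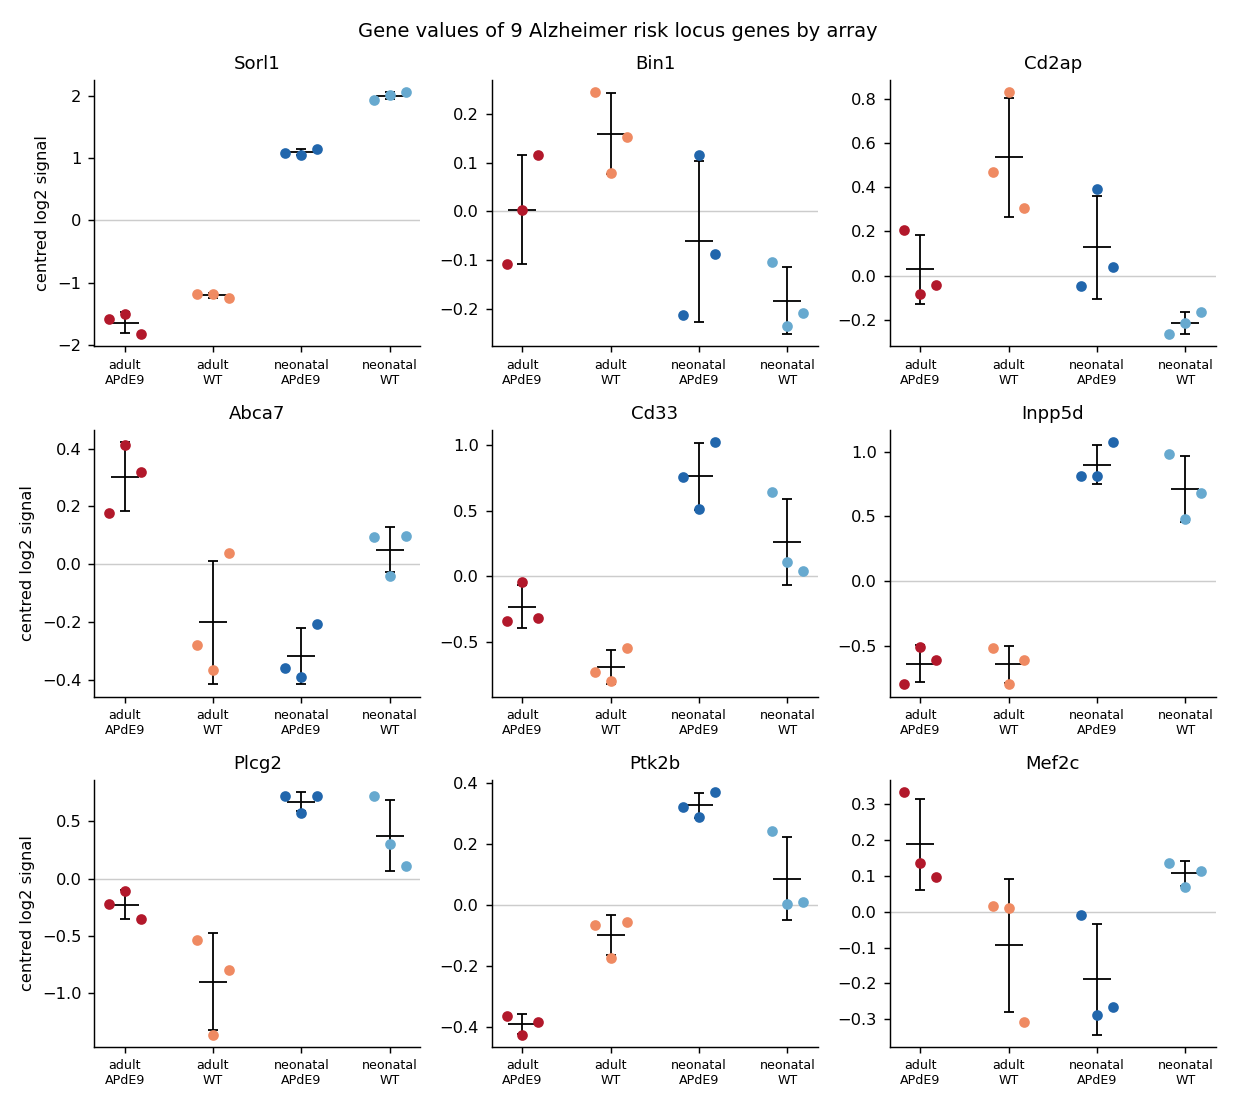
Centred log2 signal of the 9 measured genes on each of the 12 arrays, with adult APdE9, adult WT, neonatal APdE9 and neonatal WT cells from left to right; the vertical axis differs between panels, points are arrays and black bars the mean and SD of 3 arrays. Sorl1 shows 4 separate levels, from a mean of 2.01 in neonatal cells on WT sections to -1.64 in adult cells on APdE9 sections, and the Cd33, Inpp5d and Plcg2 panels show every adult array below every neonatal one.

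Sorl1 encodes SORLA, a sorting receptor that binds the amyloid precursor protein and steers it back toward the Golgi with the retromer coat. Its centred signals were -1.59, -1.50 and -1.83 in adult cells on APdE9 sections and -1.18, -1.18 and -1.25 in adult cells on WT sections. In neonatal cells they were 1.08, 1.06 and 1.15 on APdE9 sections and 1.94, 2.02 and 2.06 on WT sections. The 4 groups did not overlap, and on each section all adult arrays were low and all neonatal arrays high.

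Sorl1 was 6.67-fold lower in adult than in neonatal cells on APdE9 sections (-2.74 ± 0.09, adjusted p = 7.91e-10) and 9.27-fold lower on WT sections (-3.21 ± 0.09, adjusted p = 8.26e-11). On APdE9 sections it also fell in both ages. In neonatal cells the section difference was -0.91 ± 0.09 (1.88-fold lower, adjusted p = 0.000252). In adult cells it was -0.44 ± 0.09 (1.36-fold lower, adjusted p = 0.00397), and this call was lost when the median of the probe sets replaced their mean (adjusted p = 0.159). The adult effect was the smaller by 0.47 ± 0.12 (adjusted p = 0.0315). That difference lost its call with quantile normalization (0.29, adjusted p = 0.446), with the median of the probe sets (adjusted p = 0.399) and without any 1 of neonatal WT replicates 2 and 3, neonatal APdE9 replicates 1 and 2, adult WT replicates 1, 2 and 3 or adult APdE9 replicates 1 and 2 (adjusted p from 0.0534 to 0.0766).

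The 3 Sorl1 probe sets moved the same way with age but not equally with the section. For 1453003_at the centred signals were -2.18, -2.58 and -2.41 in adult cells on APdE9 sections and -1.59, -1.62 and -1.42 on WT sections, so the adult groups were apart. That probe set fell by 0.85 in adult cells (adjusted p = 0.000375 over probe sets) and by 1.22 in neonatal cells (adjusted p = 0.000451). For 1460390_at the adult difference was -0.06 (adjusted p = 0.797) and the groups overlapped, while in neonatal cells it fell by 0.63 (adjusted p = 0.0207). With 1426258_at neither section comparison passed the test, at -0.41 in adult cells (adjusted p = 0.254) and -0.90 in neonatal cells (adjusted p = 0.0533).

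Among the 20 genes of retromer and cargo sorting, the section changed 5 in adult cells, 2 upward and 3 downward, and 1 in neonatal cells, downward. With 17.7% and 3.76% of all genes called, the neonatal count is near what all genes show. The adult count was 3 without adult APdE9 replicate 2 or adult WT replicate 2. Sorcs2, a relative of Sorl1 in the family of Vps10-domain receptors, fell by 1.23 in adult cells on APdE9 sections (adjusted p = 4.36e-05). Sort1, encoding sortilin of the same family, fell by 0.40 in adult cells (adjusted p = 0.00227) and by 0.40 in neonatal cells (adjusted p = 0.0103), but the neonatal call was lost without neonatal WT replicate 2 (adjusted p = 0.0640), with quantile normalization (-0.26, adjusted p = 0.0753), with the median of the probe sets (adjusted p = 0.0598) and with only the arrays compared (adjusted p = 0.0651). The sorting nexin Snx1 rose by 0.55 in adult cells (adjusted p = 0.000901). Between adult and neonatal cells 8 of the 20 changed on each section, 2 upward and 6 downward, where 23.5% of all genes were called on APdE9 and 30.1% on WT sections. These counts were 5 without adult APdE9 replicate 1 or neonatal APdE9 replicate 3, and 5 without adult WT replicate 1 or neonatal WT replicate 2. Sort1 fell with age by 1.11 on both sections (adjusted p = 2.23e-07 on APdE9 and 1.64e-07 on WT). The median difference of the 20 genes lay between -0.05 and 0.05 in these comparisons.

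**Figure D2:**
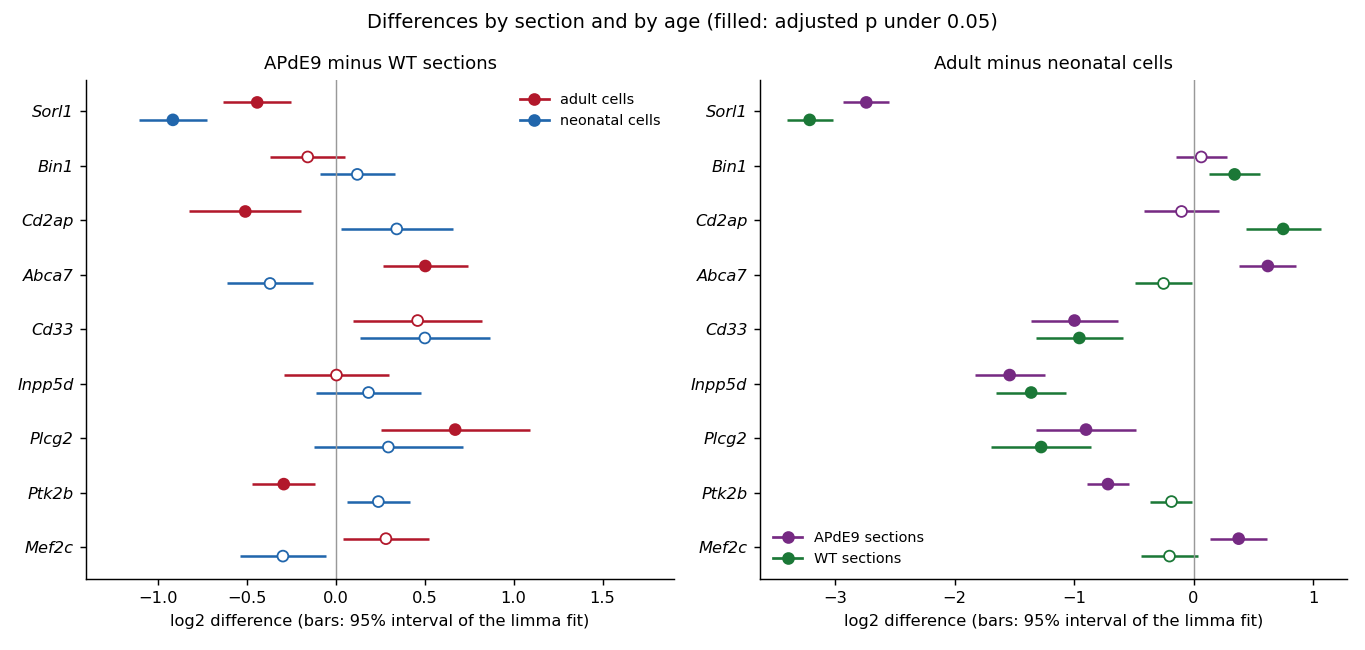
Log2 differences of the 9 genes in the limma fit, APdE9 minus WT sections on the left and adult minus neonatal cells on the right; bars are 95% intervals and filled points have an adjusted p under 0.05. The left panel shows Sorl1 below 0 in both ages, and Abca7, Mef2c, Cd2ap and Ptk2b on opposite sides of 0 in adult and neonatal cells; the right panel shows Sorl1 at -2.74 on APdE9 and -3.21 on WT sections.

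Bin1 and Cd2ap encode adaptors of the endocytic machinery. Bin1 is a relative of amphiphysin that senses and bends membranes, and CD2AP is a scaffold that ties receptors to actin and to endocytic vesicles. Bin1 was at -0.11, 0.0021 and 0.12 in adult cells on APdE9 sections and 0.25, 0.079 and 0.15 in adult cells on WT sections. In neonatal cells it was at -0.21, 0.12 and -0.089 on APdE9 sections and -0.10, -0.24 and -0.21 on WT sections. Only the adult and neonatal arrays on WT sections were apart.

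Bin1 did not pass the test for the section, with -0.16 in adult cells (95% interval -0.37 to 0.06, adjusted p = 0.308) and 0.12 in neonatal cells (95% interval -0.09 to 0.33, adjusted p = 0.686). It was higher in adult than in neonatal cells on WT sections by 0.34 ± 0.10 (adjusted p = 0.0173), and on APdE9 sections the difference was 0.07 (adjusted p = 0.694). The WT call was lost without neonatal WT replicate 2 (adjusted p = 0.0661) or adult WT replicate 1 (adjusted p = 0.0689). It came from 1425532_a_at (0.47) and 1444120_at (0.51), while 1423618_at stood at 0.05.

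Cd2ap stood at 0.21, -0.082 and -0.041 in adult cells on APdE9 sections and at 0.47, 0.83 and 0.30 in adult cells on WT sections. In neonatal cells it stood at -0.0475, 0.39 and 0.041 on APdE9 sections and at -0.265, -0.22 and -0.16 on WT sections. The adult WT arrays were the high group and the neonatal WT arrays the low one, with neither overlapping the APdE9 arrays of its age.

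In adult cells Cd2ap fell on APdE9 sections by 0.51 ± 0.14 (adjusted p = 0.0293), and in neonatal cells the difference was 0.34 ± 0.14 (adjusted p = 0.277). The difference between these effects was -0.85 ± 0.20 (adjusted p = 0.0206). With age it rose on WT sections by 0.75 ± 0.14 (adjusted p = 0.00154), against -0.10 ± 0.14 on APdE9 sections (adjusted p = 0.680). The adult section call was lost without adult APdE9 replicate 2 (adjusted p = 0.110) or 3 (0.0790), without adult WT replicate 1 (0.0548) or 2 (0.127), with only the arrays compared (0.0522), and with the median of the probe sets (-0.26, adjusted p = 0.159). The call for the difference was lost without adult APdE9 replicate 2 (adjusted p = 0.0572), without neonatal WT replicate 2 (0.0501) and with the median of the probe sets (-0.50, adjusted p = 0.0875); with that median the rise with age on WT sections was 0.50 (adjusted p = 0.00618).

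The size of the Cd2ap values came mostly from 1 probe set, 1420908_at. Its signals were 0.32, -0.011 and -0.10 in adult cells on APdE9 sections and 0.95, 1.57 and 0.81 in adult cells on WT sections, a difference of -1.04 (adjusted p = 0.0386 over probe sets). In neonatal cells on APdE9 sections it was at -0.20, 1.16 and 0.011, so replicate 2 stood far above the other arrays of its group. The adult differences of the other Cd2ap probe sets had the same sign but did not pass, at -0.37 for 1420906_at (adjusted p = 0.0653) and -0.11 for 1420907_at (adjusted p = 0.632).

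Of the 33 genes of clathrin-mediated endocytosis, 6 (18.2%) changed with the section in adult cells, 2 upward and 4 downward, and 2 (6.06%) in neonatal cells, 1 each way. These shares are near those of all genes, 17.7% and 3.76%. The adult count was 2 without adult APdE9 replicate 2 or 3 or adult WT replicate 1 or 2, and the neonatal one was 0 without neonatal APdE9 replicate 2. Amph, encoding amphiphysin, the close relative of Bin1, fell on APdE9 sections by 0.76 in adult cells (adjusted p = 0.000552) and by 0.59 in neonatal cells (adjusted p = 0.0138), the neonatal call being lost without neonatal APdE9 replicate 2 (adjusted p = 0.0545) and with only the arrays compared (0.0728). The adult median of the list was 0.01, with 0.05 over all genes. With age 9 (27.3%) changed on APdE9 sections, 7 upward and 2 downward, beside 23.5% of all genes, and 17 (51.5%) on WT sections, 13 upward and 4 downward, beside 30.1%. The count on APdE9 sections was 4 without neonatal APdE9 replicate 1 or 3, and that on WT sections was 10 without adult WT replicate 2 and 11 without neonatal WT replicate 2. The dynamin gene Dnm1, whose product cuts vesicles from the membrane, rose with age by 1.07 on APdE9 (adjusted p = 1.19e-06) and by 1.33 on WT sections (adjusted p = 1.25e-07). Sh3kbp1, the paralog of Cd2ap, rose with age by 1.30 on WT sections (adjusted p = 8.03e-06).

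Abca7, a lipid transporter of the ABCA subfamily, had 1 probe set, 1419238_at. It was at 0.18, 0.41 and 0.32 in adult cells on APdE9 sections and at -0.28, -0.36 and 0.040 in adult cells on WT sections. In neonatal cells it was at -0.36, -0.39 and -0.21 on APdE9 sections and at 0.093, -0.040 and 0.0965 on WT sections. In each age the section groups were apart, with the APdE9 arrays high in adult cells and low in neonatal cells.

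In adult cells Abca7 rose on APdE9 sections by 0.50 ± 0.11 (1.42-fold, adjusted p = 0.00682). In neonatal cells the difference was -0.37 ± 0.11 and did not pass (adjusted p = 0.101), except without adult WT replicate 3 (adjusted p = 0.0491). The section effects differed by 0.87 ± 0.16 (adjusted p = 0.00397). This call and the adult one held under each of the alternatives run, of which the median of the probe sets cannot change the value of a gene with 1 probe set. With age Abca7 rose on APdE9 sections by 0.62 ± 0.11 (adjusted p = 0.00111). On WT sections the age difference was -0.25 ± 0.11 (adjusted p = 0.114), which passed only without adult WT replicate 3 (adjusted p = 0.0165).

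Among the 14 other transporters of the ABCA and ABCG subfamilies, 6 changed with the section in adult cells, 5 upward and 1 downward, with a median difference of 0.30 beside 0.05 over all genes. Abca1, which loads cholesterol onto apolipoproteins, rose by 0.62 (adjusted p = 0.00569) and Abca9 fell by 0.72 (adjusted p = 0.00231). All genes were called at 17.7%, and the count was 3 without adult APdE9 replicate 2 or adult WT replicate 2 or 3, and with quantile normalization. In neonatal cells 2 changed, 1 each way, at a median of -0.05, beside 3.76% of all genes called. The count was 0 without neonatal WT replicate 2 or neonatal APdE9 replicate 1. The difference of the section effects between the ages was called for 2 of the 14, beside 10.1% of all genes. These were Abca2 (0.79, adjusted p = 0.00421) and Abca3 (0.62, adjusted p = 0.00700), both in the same direction as Abca7. With age 7 changed on APdE9 sections, 4 upward and 3 downward (4 in all without neonatal APdE9 replicate 3), and 8 on WT sections, 2 upward and 6 downward, beside 23.5% and 30.1% of all genes. The sterol exporter Abcg1 fell with age by 2.00 on APdE9 (adjusted p = 1.06e-06) and by 1.63 on WT sections (adjusted p = 4.79e-06).

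Cd33 encodes a receptor of myeloid cells that binds sialic acid. Inpp5d encodes SHIP1, the phosphatase that removes the 5-phosphate from the lipid messenger made by phosphoinositide 3-kinase, and Plcg2 a phospholipase C that acts below receptors with activating (ITAM) adaptors. Cd33 was at -0.34, -0.040 and -0.32 in adult cells on APdE9 sections and at -0.73, -0.80 and -0.54 in adult cells on WT sections. In neonatal cells it was at 0.76, 0.52 and 1.03 on APdE9 sections and at 0.64, 0.11 and 0.040 on WT sections. All adult arrays were below all neonatal ones, and the adult section groups were apart.

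Cd33 was 1.99-fold lower in adult than in neonatal cells on APdE9 sections (SE 0.17 on the log2 scale, adjusted p = 0.000765) and 1.94-fold lower on WT sections (-0.96 ± 0.17, adjusted p = 0.000771). The section differences were of like size in both ages but did not pass, at 0.46 ± 0.17 in adult cells (adjusted p = 0.0796) and 0.50 ± 0.17 in neonatal cells (adjusted p = 0.147). Their own difference was -0.04 (95% interval -0.56 to 0.47, adjusted p = 0.947). Both section differences passed with array weights (adult 0.0274, neonatal 0.00893) and without neonatal WT replicate 1 (adult 0.0314, neonatal 0.0242), and the adult one with only the arrays compared (0.0279).

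Inpp5d was at -0.79, -0.51 and -0.61 in adult cells on APdE9 sections and at -0.52, -0.80 and -0.61 in adult cells on WT sections. Its neonatal signals were 0.81, 0.81 and 1.08 on APdE9 sections and 0.98, 0.48 and 0.68 on WT sections. The ages were apart and the sections overlapped within each age.

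Inpp5d was 2.91-fold lower in adult than in neonatal cells on APdE9 sections (-1.54 ± 0.13, adjusted p = 2.98e-06) and 2.56-fold lower on WT sections (-1.36 ± 0.13, adjusted p = 6.74e-06). For the section the difference was 0.005 in adult cells (95% interval -0.29 to 0.30, adjusted p = 0.986) and 0.19 in neonatal cells (95% interval -0.11 to 0.48, adjusted p = 0.639). The neonatal one passed with array weights (0.0479). The probe sets differed in size. With 1418110_a_at the age difference was -2.70 on APdE9 (adjusted p = 1.65e-06) and -2.37 on WT sections (adjusted p = 3.72e-06), and with 1424195_a_at it was -0.38 (adjusted p = 0.0193) and -0.34 (adjusted p = 0.0239).

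Plcg2 was at -0.22, -0.11 and -0.35 in adult cells on APdE9 sections and at -0.54, -1.36 and -0.80 in adult cells on WT sections. In neonatal cells it was at 0.72, 0.58 and 0.72 on APdE9 sections and at 0.72, 0.30 and 0.11 on WT sections. The ages were apart, and so were the adult section groups, with adult WT replicate 2 the lowest array.

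Plcg2 was 1.87-fold lower in adult than in neonatal cells on APdE9 sections (-0.90 ± 0.19, adjusted p = 0.00416) and 2.42-fold lower on WT sections (-1.27 ± 0.19, adjusted p = 0.000249). In adult cells it rose on APdE9 sections by 0.67 ± 0.19 (adjusted p = 0.0300), and in neonatal cells the difference was 0.30 ± 0.19 (adjusted p = 0.578). The section effects were not shown to differ (0.38 ± 0.27, adjusted p = 0.468). Without adult WT replicate 2 the adult difference was 0.44 and lost its call (adjusted p = 0.114). It was also lost without adult WT replicate 3 (0.0502), adult APdE9 replicate 1 (0.0696) or 2 (0.108), with quantile normalization (0.0538) and with only the arrays compared (0.0522).

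Most microglia markers were lower in adult than in neonatal cells, as were Cd33, Inpp5d and Plcg2. On APdE9 sections, where 23.5% of all genes were called with age, 17 of 20 measured markers were lower and 0 higher in adult cells. On WT sections, with 30.1% of all genes called, 17 were lower and 1 higher. The median differences of the markers were -3.54 and -3.66. Their mean centred signal lay between -1.41 and -1.29 in adult cells on APdE9 sections, between -2.04 and -1.78 in adult cells on WT sections, between 1.78 and 1.93 in neonatal cells on APdE9 sections and between 1.23 and 1.74 in neonatal cells on WT sections. In each age the mean was thus higher on APdE9 sections. Inpp5d was called for the section in neither age, at 0.005 in adult and 0.19 in neonatal cells. Of the markers, 7 were higher and 1 lower in adult cells and 5 higher and 0 lower in neonatal cells, beside 17.7% and 3.76% of all genes. The neonatal count rested on single arrays, at 0 when neonatal WT replicate 2 was left out and at 1 without neonatal WT replicate 3 or neonatal APdE9 replicate 1 or 3. It was 2 when neonatal APdE9 replicate 2 was dropped, 3 when adult APdE9 replicate 2 was, and 8 when neonatal WT replicate 1 was. The adult count of 8 was 4 without adult WT replicate 2, 5 without adult APdE9 replicate 2 and 3 with quantile normalization. Adult WT replicate 2, at -2.04, was the lowest array in this mean and in Plcg2, Cd33 and Inpp5d. In Inpp5d adult APdE9 replicate 1 was nearly as low, at -0.79 beside -0.80. Neonatal WT replicate 1, at 1.74, was the highest of its group in the mean and in the same 3 genes. The complement gene C1qa was at -6.23 for adult minus neonatal cells on APdE9 sections and at -6.20 on WT sections, and C1qb at -7.07 and -6.78. Since levels had been removed, whether any marker was near background in a group was not measured, and the part of microglia in the differences of Cd33, Inpp5d and Plcg2 was not tested.

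**Figure D3:**
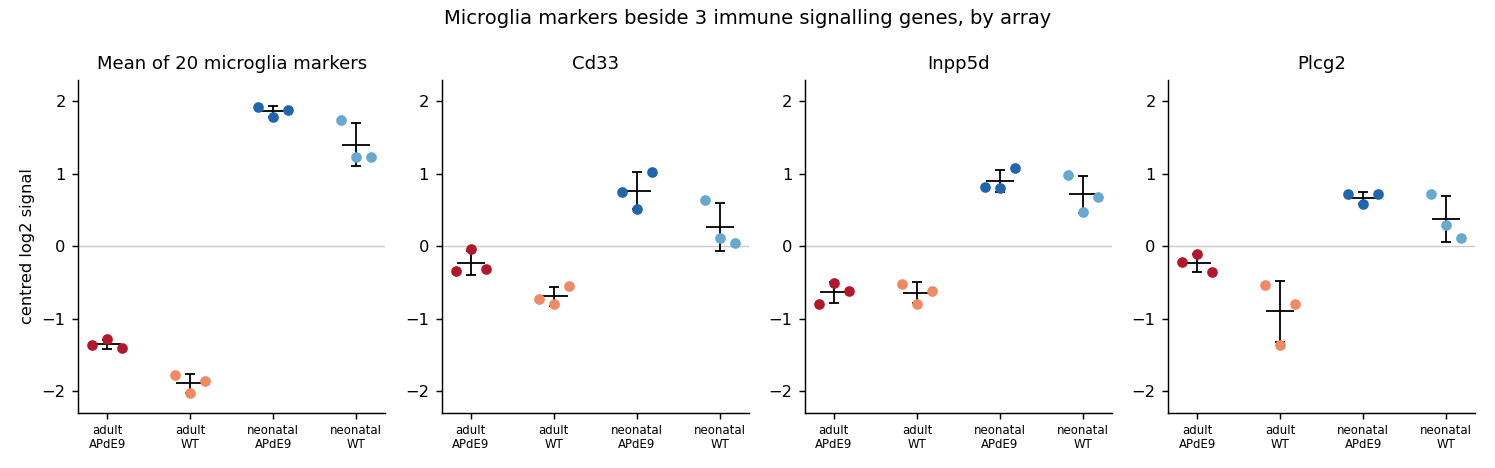
Mean centred log2 signal of 20 microglia markers beside Cd33, Inpp5d and Plcg2 on each array, on 1 shared vertical scale, with points for arrays and black bars for the mean and SD of 3 arrays. Adult arrays lie below neonatal arrays in all 4 panels, and the marker mean spans -2.04 to 1.93. Adult WT replicate 2 is the lowest point of each panel, in Inpp5d by very little.

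Markers of other cell types were called as well. All genes were called at 23.5% for age on APdE9 and 30.1% on WT sections, and for the section at 17.7% in adult and 3.76% in neonatal cells. Of 16 astrocyte markers, 11 were lower and 1 higher in adult cells on APdE9 sections and 13 lower and 2 higher on WT sections, with medians of -1.13 and -1.06. The adult minus neonatal difference of the glial filament gene Gfap was -3.45 and -4.24. With the section, 7 astrocyte markers fell and none rose in neonatal cells, and 6 rose and 4 fell in adult cells. Of 13 endothelial and mural markers, 5 were higher and 1 lower in adult cells on APdE9 sections and 6 higher and 2 lower on WT sections, with medians of 0.08 and 0.03 beside 0.05 and 0.01 over all genes. Their mean lay between 0.21 and 0.31 on the 6 adult arrays and between -0.39 and -0.23 on the 6 neonatal ones, with Esam at 3.87 on APdE9 and 3.47 on WT sections, Cdh5 at 2.19 and 2.25 and Tek at -1.44 and -1.16. Of 12 neuronal markers 2 (16.7%) were lower on APdE9 sections in adult cells, near the 17.7% of all genes. In neonatal cells limma called 0 of the 12, and 1 had an unadjusted p under 0.05. Of 9 oligodendrocyte markers the section changed 5 in adult cells, 4 upward and 1 downward, and 3 in neonatal cells, 2 upward and 1 downward. The myelin gene Mbp was higher on APdE9 sections by 1.78 in adult cells (adjusted p = 5.56e-05) and by 1.80 in neonatal cells (adjusted p = 0.00053). The oligodendrocyte mean lay between 0.13 and 0.25 in adult cells on APdE9 sections, between -0.27 and -0.19 in adult cells on WT sections, between 0.12 and 0.22 in neonatal cells on APdE9 sections and between -0.033 and 0.09 in neonatal cells on WT sections. This mean was thus apart between the sections in both ages. The median difference of the 9 markers was 0.20 in adult but -0.07 in neonatal cells, where Cnp fell by 0.59 (adjusted p = 0.00191). The adult count of oligodendrocyte markers was 3 without adult APdE9 replicate 2 or 3 or adult WT replicate 1 or 2. The part of all these markers in the results on the 9 genes was not tested.

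Of 25 measured genes of ITAM and ITIM receptor signalling, in which Cd33, Inpp5d and Plcg2 act, 16 were lower and 0 higher in adult cells on APdE9 sections, and 15 were lower and 1 higher on WT sections. The medians were -0.73 and -0.55, and 23.5% and 30.1% of all genes were called with age. The activating adaptor Tyrobp, itself on the microglia list, differed by -4.99 on APdE9 (adjusted p = 1.77e-09) and by -5.35 on WT sections (adjusted p = 6.78e-10). Fcer1g, which encodes another ITAM adaptor, differed by -5.05 (adjusted p = 9.76e-08) and -4.55 (adjusted p = 1.72e-07), and the receptor gene Clec7a by -4.01 (adjusted p = 1.48e-08) and -3.94 (adjusted p = 1.18e-08). For the section 3 of the 25 changed in adult cells, 1 upward and 2 downward, beside 17.7% of all genes, and 1 in neonatal cells, upward, beside 3.76%. The adult count was 1 without adult WT replicate 2, and the neonatal one was between 0 and 4 when 1 array was left out. The inhibitory receptor gene Siglecg fell by 0.93 in adult cells (adjusted p = 0.000107).

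Ptk2b encodes PYK2, the calcium-responsive relative of focal adhesion kinase. As a mean of its 2 probe sets it was at -0.36, -0.42 and -0.38 in adult cells on APdE9 sections and at -0.066, -0.18 and -0.056 in adult cells on WT sections. The neonatal arrays gave 0.32, 0.29 and 0.37 on APdE9 sections and 0.24, 0.0042 and 0.0095 on WT sections. The sections were apart within each age, with the APdE9 arrays low in adult cells and high in neonatal cells.

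Ptk2b fell on APdE9 sections in adult cells by 0.29 ± 0.08 (adjusted p = 0.0259), and in neonatal cells the difference was 0.24 ± 0.08 (adjusted p = 0.150). The effects differed by -0.53 ± 0.11 (adjusted p = 0.0117), a call that held under each alternative run, of which the median of 2 probe sets is their mean. With age it fell on APdE9 sections by 0.72 ± 0.08 (adjusted p = 2.81e-05), against -0.18 ± 0.08 on WT sections (adjusted p = 0.114). The fall lay in 1434653_at, at -1.50 ± 0.12 (adjusted p = 1.86e-06 over probe sets), while 1442927_at was at 0.07 ± 0.09 (adjusted p = 0.710). The adult section call was lost with quantile normalization (0.0561) and without adult APdE9 replicate 1 (0.0508), 2 (0.0862) or 3 (0.0578) or adult WT replicate 1 (0.0781) or 3 (0.0820). The neonatal difference passed with array weights (0.0106) and without neonatal WT replicate 1 (0.0438).

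The 2 Ptk2b probe sets did not move together. For 1434653_at the signals were -0.83, -0.86 and -0.85 in adult cells on APdE9 sections and -0.088, -0.051 and 0.14 in adult cells on WT sections. In neonatal cells they were 0.71, 0.585 and 0.66 on APdE9 sections and 0.40, -0.0775 and 0.051 on WT sections. The groups were apart in both ages, in opposite directions.

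For this probe set the section difference was -0.85 ± 0.12 in adult cells (adjusted p = 0.000499 over probe sets) and 0.52 ± 0.12 in neonatal cells (adjusted p = 0.0449), and the effects differed by -1.37 ± 0.17 (adjusted p = 0.000552). With 1442927_at the adult difference was 0.27 ± 0.09 (adjusted p = 0.0843), the neonatal one -0.04 (adjusted p = 0.957) and the difference of effects 0.31 ± 0.13 (adjusted p = 0.211). The gene value of Ptk2b is therefore a mean of probe sets with opposite signs in adult cells.

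**Figure D4:**
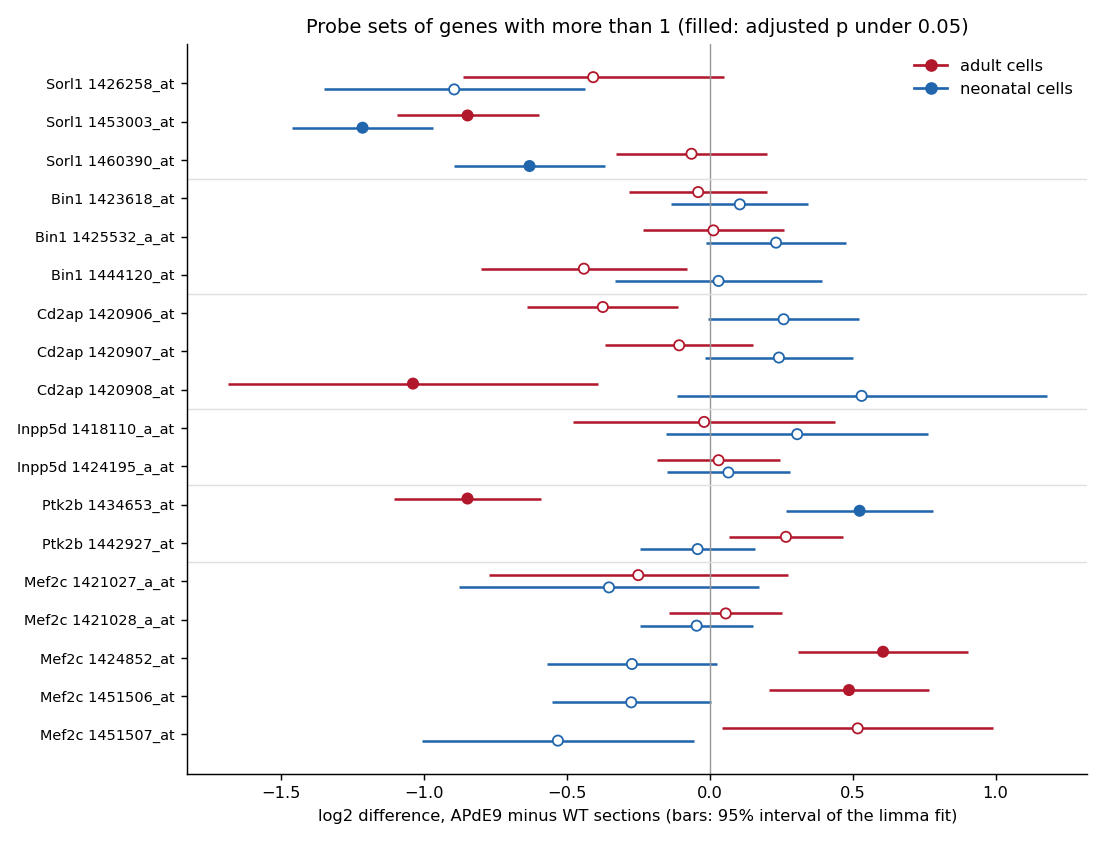
Log2 difference of APdE9 minus WT sections for each probe set of the 6 genes with more than 1, in adult and in neonatal cells; bars are 95% intervals of the limma fit and filled points have an adjusted p under 0.05 over all probe sets. The Ptk2b probe set 1434653_at lies at -0.85 in adult and 0.52 in neonatal cells while 1442927_at lies at 0.27 and -0.04, and the Mef2c, Cd2ap and Sorl1 probe sets differ from each other in size.

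Of 8 measured partners of focal adhesion kinases, 4 fell and 0 rose on APdE9 sections in adult cells, beside 17.7% of all genes called. In neonatal cells limma called 0 of the 8, beside 3.76% of all genes, and 3 of the 8 had an unadjusted p under 0.05. Vcl, encoding the actin linker vinculin, fell by 0.91 (adjusted p = 0.00218) and Zyx, encoding zyxin, by 0.62 (adjusted p = 0.00295). With age 6 of the 8 rose and 1 fell on APdE9 sections and 4 rose on WT sections, beside 23.5% and 30.1% of all genes. The 7 calls on APdE9 sections were 3 without adult APdE9 replicate 1 or 2 or neonatal APdE9 replicate 3, and 4 when neonatal APdE9 replicate 2 was dropped. Zyx rose by 0.69 on APdE9 (adjusted p = 0.000867) and by 1.00 on WT sections (adjusted p = 2.98e-05).

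Mef2c encodes a MADS-box transcription factor of neurons, muscle and microglia. Its mean over 5 probe sets was at 0.33, 0.14 and 0.097 in adult cells on APdE9 sections and at 0.017, 0.011 and -0.31 in adult cells on WT sections. The neonatal cells had it at -0.010, -0.29 and -0.27 on APdE9 sections and at 0.14, 0.070 and 0.11 on WT sections. The APdE9 arrays were the higher group in adult cells and the lower one in neonatal cells, without overlap.

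Neither section difference of Mef2c passed alone, with 0.28 ± 0.11 in adult cells (adjusted p = 0.102) and -0.30 ± 0.11 in neonatal cells (adjusted p = 0.207). The adult one passed with the median of the probe sets (adjusted p = 0.0311), and the neonatal one with array weights (0.0492). The difference between them was 0.58 ± 0.16 (adjusted p = 0.0352). With age Mef2c rose on APdE9 sections by 0.38 ± 0.11 (adjusted p = 0.0253), against -0.20 ± 0.11 on WT sections (adjusted p = 0.214). The call for the difference was lost with quantile normalization (0.0665), with arrays centred on their median (0.0605), and without adult APdE9 replicate 1 or 2, adult WT replicate 3, neonatal APdE9 replicate 2 or 3 or any 1 of the neonatal WT arrays (0.0582 to 0.0840). The age call was lost with arrays centred on their median (0.0565) and without adult APdE9 replicate 1 (0.0983), neonatal APdE9 replicate 2 (0.0899) or 3 (0.0856).

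The adult section difference lay in 3 of the 5 Mef2c probe sets. It was 0.61 for 1424852_at (adjusted p = 0.0115 over probe sets), 0.49 for 1451506_at (adjusted p = 0.0256) and 0.52 for 1451507_at, which did not pass (adjusted p = 0.159). For 1421027_a_at it was -0.25 (adjusted p = 0.574) and for 1421028_a_at 0.06 (adjusted p = 0.762). In neonatal cells the section differences of the 5 probe sets ran from -0.53 for 1451507_at to -0.05 for 1421028_a_at. The neonatal section groups overlapped in each of the 5, and none passed. The paralogs Mef2a, Mef2b and Mef2d were not called in any comparison. Of the class IIa histone deacetylases, which bind MEF2 factors, Hdac5 rose with age on APdE9 sections by 0.85 (adjusted p = 0.000493) and Hdac9 fell by 0.42 (adjusted p = 0.00117). On WT sections limma called 0 of the 7 genes of that list with age (1 with an unadjusted p under 0.05), where 30.1% of all genes were called.

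Of 40 measured genes at other human risk loci for Alzheimer's disease, 11 changed with the section in adult cells, 5 upward and 6 downward, and 2 in neonatal cells, both downward, beside 17.7% and 3.76% of all genes. The neonatal count was between 0, without neonatal WT replicate 2, and 4, without neonatal WT replicate 1. Apoe, encoding the lipid carrier apolipoprotein E, rose in adult cells on APdE9 sections by 1.92 (adjusted p = 1.05e-07). The adhesion adaptor gene Fermt2 fell by 0.61 (adjusted p = 0.00231) and Echdc3 by 0.67 (adjusted p = 0.000185). With age 18 changed on APdE9 sections, 5 upward and 13 downward, and 19 on WT sections, 5 upward and 14 downward, beside 23.5% and 30.1% of all genes. Clu, encoding the extracellular chaperone clusterin, differed between adult and neonatal cells by -3.83 on APdE9 (adjusted p = 1.51e-10) and by -4.37 on WT sections (adjusted p = 1.73e-11). Spi1, which encodes PU.1, fell with age by 1.64 on APdE9 sections (adjusted p = 8.4e-06).

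Likeness to other genes was measured as the root mean square difference of centred log2 values over the 12 arrays, with the smallest values naming the most alike genes. For Sorl1 these were Chil1 at 0.14, Vstm4 at 0.26 and Plce1 at 0.30, where Sorl1 itself had a root mean square of 1.53. For Inpp5d, with 0.75, they were Pik3cg at 0.13, Cotl1 at 0.16 and Lair1 at 0.17. For Cd33, with 0.58, they were Cd37 at 0.14, Cndp2 at 0.17 and Dock2 at 0.19. Plcg2, with 0.64, was nearest to Pde2a at 0.16, Gda at 0.19 and Cd33 at 0.22. The 5 remaining genes varied less over the arrays, with root mean squares from 0.16 for Bin1 to 0.34 for Cd2ap, and their nearest genes were Exosc2, Atp13a1, Dnase1l1, Mapkbp1 and ND5 for Bin1, Abca7, Ptk2b, Mef2c and Cd2ap, at 0.07 to 0.13.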

How the data were processed

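The submitters' processing notes name RMA, a method that turns probe signals into 1 value a probe set, and the deposited table gives values taken here as log2 signals, although the log base is not stated. All 45095 of 45095 complete probe sets had a median of 0 over the 12 arrays within 1e-06, so the deposited values had been centred, and neither background nor detection could be computed. The deposited columns of 4 arrays hold 6 values over 100 that seem to lack a decimal point. For this reason alone these columns were labelled scores. The score columns were processed by the submitters with RMA and centred before deposition, as the other columns were, and are on the same scale. The 6 values were set to missing, and none was in a probe set described here. Array medians lay between -0.039 and 0.034.

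After leaving out 64 controls, 45037 probe sets were tested; the annotation gave 34945 of them 1 gene (34741 matched to RefSeq symbols), 932 more than 1 and 9160 no gene. Single-gene probe sets were averaged to a gene value. A model of 4 group means was fitted to 12 arrays with limma 3.58.1 in R 4.3.3 (residual degrees of freedom 8, prior 3.97), with p-values adjusted by Benjamini-Hochberg over all genes or all probe sets at 0.05. The same code was tested on simulated data. Figures were drawn with matplotlib 3.10.9.

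The 10 genes and the gene lists were chosen with earlier results of these data known. Named genes were the 9 measured ones, up to 4 called genes of largest difference per list and comparison described, and the 3 genes of smallest root mean square difference for each called gene. Some genes of the lists are not reported here.

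Replicate numbers were checked as pairs by the correlation of deviations from the group means. All pairs passed 0.1 for age on APdE9 sections (0.460, 0.206 and 0.473) and for the neonatal section comparison (0.305, 0.147 and 0.519), but not for the adult one (0.348, -0.147 and 0.496) or age on WT sections (0.404, 0.025 and 0.405). As alternatives, the fit was repeated with array weights, quantile normalization, arrays centred on their median, a replicate block, only the arrays compared, the median of probe sets, an SD filter that dropped 40%, a robust variance prior and leaving out each array. Arrays give no counts, so their number, 3 a group, limits the precision.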

Additional observations from a re-analysis of the deposited data

Results flagged for a closer look

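For 5 of the 9 genes the difference between APdE9 and WT sections itself differed between adult and neonatal cells, by the test of the difference in the limma fit, where 10.1% of all genes were called. Adult minus neonatal, the section effects differed by 0.47 for Sorl1 (adjusted p = 0.0315), which was lower on APdE9 sections in both ages. They differed by 0.87 for Abca7 (adjusted p = 0.00397), by -0.85 for Cd2ap (adjusted p = 0.0206), by 0.58 for Mef2c (adjusted p = 0.0352) and by -0.53 for Ptk2b (adjusted p = 0.0117). In the gene values of these 4 the signs of the section effect were opposite in the 2 ages and the arrays of the sections did not overlap in either age, which held for 3.29% of all genes. By probe set, the neonatal section groups overlapped for all 5 of Mef2c and for 1442927_at of Ptk2b. Of the Cd2ap probe sets, only 1420906_at had the sections apart in both ages. The calls for Sorl1, Cd2ap and Mef2c were lost in some alternatives. Those for Abca7 and Ptk2b held in each, but the median of the probe sets, which ended the calls of Sorl1 and Cd2ap, cannot change the value of these genes with 1 and 2 probe sets. For Ptk2b, 1434653_at gave -1.37 and 1442927_at gave 0.31.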

How the results depend on the processing

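Over the 9 genes and 5 comparisons, 891 values were recomputed under alternative settings, and 815 kept their direction and their side of the threshold, 49 lost a call, 13 gained one and 14 changed sign without being called in either setting. The age calls of Sorl1, Cd33, Inpp5d and Plcg2 on both sections, of Cd2ap on WT sections and of Abca7 and Ptk2b on APdE9 sections held in each alternative, as did the neonatal section call of Sorl1. The median of the probe sets leaves the values of Abca7, Cd33, Plcg2, Inpp5d and Ptk2b as they are, since they have 1 or 2 probe sets, and the Ptk2b age call lay in 1 of its 2. How the counts of the gene lists move when 1 array is left out was looked at after seeing the data. For the section in neonatal cells, 1 gene was called, 5 with array weights, and 1 to 3 when 1 array was left out. Over all 18193 genes the calls were 684, and 2160 with array weights. For the section in adult cells, 5 genes were called, 3 with quantile normalization and 2 to 6 when 1 array was left out. Over all genes the calls were 3213, and 2558 with quantile normalization. For the difference of the section effects, 5 were called, 3 higher and 2 lower. That count was 3 with quantile normalization, 1 higher and 2 lower, 3 with the median of the probe sets, and 2 to 5 when 1 array was left out. Over all genes 1831 were called, 1362 with quantile normalization and 1725 with the median of the probe sets. With age the counts stayed at 6 or 7 on APdE9 sections, where median centring gave 1 higher and 5 lower in place of 2 and 5, and between 5 and 7 on WT sections. Over all genes median centring gave 4151 calls in place of 4279 for age on APdE9 sections. Of 21 probe sets over 5 comparisons 39 calls were made, and 27 to 36 when 1 array was left out. Of all probe sets, between 2.00% and 22.9% were called in each of the comparisons.

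Among the 9 genes, the values that changed sign were called in neither setting. With 1 array left out, the difference of the Cd33 section effects ranged from -0.23 to 0.0893, the Inpp5d section difference in adult cells from -0.0732 to 0.0826, the Bin1 age difference on APdE9 sections from -0.0108 to 0.15 and that of Cd2ap from -0.19 to 0.0312. The Inpp5d difference was -0.0006 with quantile normalization and -0.0257 with median centring, and the Cd2ap age difference was 0.0021 with the median of the probe sets. Among the microglia markers, C1qc was 1.01 higher on APdE9 sections in adult cells and -0.0649 with quantile normalization. The causes were not tested.

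With the replicate number as a block, as a test of pairing, 1 call among the 9 genes changed. The Mef2c section difference in adult cells passed (adjusted p = 0.0417). The adult pairs had correlations of 0.348, -0.147 and 0.496, which do not settle whether those arrays were paired. The counts with the replicate block were 6 and 1 genes for the section in adult and neonatal cells, 5 for their difference, 7 and 6 for age on APdE9 and WT sections, and 43 probe set calls. Over all genes the block gave 4217 and 1013 for the section in adult and neonatal cells and 2623 for their difference. For age it gave 5079 on APdE9 and 6216 on WT sections. Over all genes, the count for the section in neonatal cells, 684, was 2160 with array weights, 272 with only the arrays compared and 263 to 761 when 1 array was left out, and that for the difference of the section effects, 1831, was 3427 with array weights and 1208 to 1811 when 1 array was left out. A filter on dim probe sets could not be run, since the deposited values hold no levels.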
